A study of Homo sapiens with 6 samples.

Results

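The ADAMTS proteases are secreted zinc metalloproteinases that carry thrombospondin repeats and work in the extracellular matrix. Members trim procollagens, cut proteoglycans such as versican and aggrecan, and bind or cleave proteins of the microfibrils that hold latent TGF-β, while ADAMTS-like proteins keep the ancillary domains but have no protease domain. Fibroblasts are a main source of these enzymes, and matrix turnover is a central theme of lung fibrosis. The genes followed here were *ADAMTS1*, *ADAMTS2*, *ADAMTS5*, *ADAMTS6*, *ADAMTS7*, *ADAMTS10*, *ADAMTS12*, *ADAMTS14*, *ADAMTS15* and *ADAMTSL1*, which are 10 of 58676 gene identifiers in the count table. They were matched by symbol and were chosen with earlier results of these data known. All 10 had at least 10 counts summed over the libraries and were tested among 19072 such genes.

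RNA-Seq was performed on MRC5 cells, a line of human fetal lung fibroblasts, after 24 h in conditioned media (CM) from engineered human alveolar epithelial type II (ATII) cells that respond to 4-hydroxytamoxifen (4-OHT). In 3 libraries the CM came from ATII cells without 4-OHT (control ATII CM), and in 3 from such cells given 4-OHT before collection (4-OHT ATII CM), so every fibroblast library had epithelial CM. The groups are called control and 4-OHT libraries here. In such bulk RNA a change in RNA per cell and a change in the mix of cells cannot be told apart. Effects of any 4-OHT carried over in the CM and of factors made by the epithelial cells cannot be told apart in this design, and the labels do not say whether replicates were separate cultures, so p values measure only the spread between these libraries.

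Library totals ran from 17691849 to 26389449 counts. Pairs of replicates were further apart than counting error alone allows (chi-square over its degrees of freedom 2.12 to 6.03), so none was the same library deposited again, which does not show that they came from separate cultures. The second principal component, with 23.3% of the variance, set control ATII CM replicate 2 apart. The 9 fibroblast markers were all expressed, with a summed level of 41020 to 44535 CPM in control ATII CM and 42888 to 44629 CPM in 4-OHT ATII CM. Most of that sum is *COL1A1* and *COL1A2*, and single markers moved: with edgeR 4 of the 9 were called as higher (*DCN*, *LUM*, *PDGFRA* and *COL3A1*, log2 fold changes 0.33, 0.29, 0.22 and 0.18) and 1 as lower (*VIM*, -0.10). The changes of *DCN* and *LUM* were of the size of those of the upregulated ADAMTS genes described below, and their part in those results was not tested. Of 10 epithelial markers, 6 had under 10 counts in all, among them *CDH1* and *SFTPC*, and the list summed to 90.4 to 96.8 CPM in control ATII CM and 88.5 to 94.5 CPM in 4-OHT ATII CM, of which keratin genes gave 99.4% to 99.8% of the counts per library. Of 5 immune and endothelial markers, 4 had under 10 counts, with sums of 0.375 to 0.616 CPM and 0.320 to 0.495 CPM. CPM is a count scaled to a fixed library total after TMM, a correction for library composition.

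The protease domain is what sets the enzymes apart from *ADAMTSL1*. The codons of its zinc-binding site were looked for in the canonical coding sequence of each gene (GENCODE release 44, GRCh38), and they were found once in 9 of the 10 genes. *ADAMTSL1*, with 1762 codons, held none. The stretch of 36 bases is shown for the 4 upregulated enzymes, for *ADAMTS12* as the relative of *ADAMTS7*, and for the procollagen enzymes *ADAMTS2* and *ADAMTS14*, whose mRNAs were not called, 5′ to 3′ on the coding strand, with the 3 zinc-binding histidine codons in capitals.
ADAMTS1: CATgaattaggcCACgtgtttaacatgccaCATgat
ADAMTS15: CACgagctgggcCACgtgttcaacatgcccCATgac
ADAMTS5: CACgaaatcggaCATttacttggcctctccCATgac
ADAMTS7: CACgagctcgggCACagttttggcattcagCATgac
ADAMTS12: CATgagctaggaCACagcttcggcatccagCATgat
ADAMTS2: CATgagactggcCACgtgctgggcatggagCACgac
ADAMTS14: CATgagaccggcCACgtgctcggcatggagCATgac

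In *ADAMTS1* and *ADAMTS15* the 8th codon of the stretch is AAC, for asparagine, and in the other 7 enzymes it is GGC or GGT, for glycine. Over the 36 pairs of enzymes the stretches shared from 21 of 36 bases to 33 of 36 bases. The highest value was that of *ADAMTS2* and *ADAMTS14*. *ADAMTS1* and *ADAMTS15* shared 29 bases, as did *ADAMTS7* with *ADAMTS12* and *ADAMTS7* with *ADAMTS10*, while *ADAMTS1* and *ADAMTS5* shared 21. In all 9 genes an intron divides the stretch, so that it lies in 2 exons. That of *ADAMTS1* starts at codon 401 and spans chr21:26841140-26841867 in exons 3 and 4, on the minus strand. The stretch of *ADAMTS15* starts at codon 361 and spans chr11:130461612-130462112 on the plus strand, in exons 2 and 3. For *ADAMTS5* it starts at codon 410 and spans chr21:26943522-26954748 on the minus strand, in exons 2 and 3. For *ADAMTS7* it starts at codon 388 and spans chr15:78788356-78789705 on the minus strand, in exons 7 and 8. For *ADAMTS12* it starts at codon 392 and spans chr5:33649679-33658200 on the minus strand, again in exons 7 and 8. The stretch of *ADAMTS2* starts at codon 408 and spans chr5:179154174-179154830 on the minus strand, and that of *ADAMTS14* starts at codon 398 and spans chr10:70732343-70733903 on the plus strand, both in exons 7 and 8.

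In the 4-OHT libraries, 4 of the 10 genes were upregulated (*ADAMTS1*, *ADAMTS5*, *ADAMTS7* and *ADAMTS15*), 1 was downregulated (*ADAMTSL1*), and 5 did not pass the threshold (edgeR quasi-likelihood test, Benjamini-Hochberg adjusted p below 0.05 over all genes tested). Fitted changes of the called genes ran from -27.3% to 29.6%. Among all genes tested 5.72% were called, 2.95% as higher and 2.76% as lower. With DESeq2, 4 members were called where 7.69% of genes with an adjusted p were, and with limma-voom 5 members where 5.94% of genes were. The median log2 fold change was 0.19 for the 10 genes and -0.0020 for all genes tested. Abundant genes are called more often, and of the 8 members with a mean of at least 10 CPM, 4 were called, all 4 as higher, where 10.2% of all genes at that level were called and 5.54% as higher. The ranges of the groups were separate in 6 of the 10 genes, 5 as higher and 1 as lower, against 22.1% of all genes tested (11.7% as higher and 10.4% as lower). As the 10 genes were chosen with earlier results of these data known, these comparisons with all genes are a description and not a test.

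**Figure D1:**
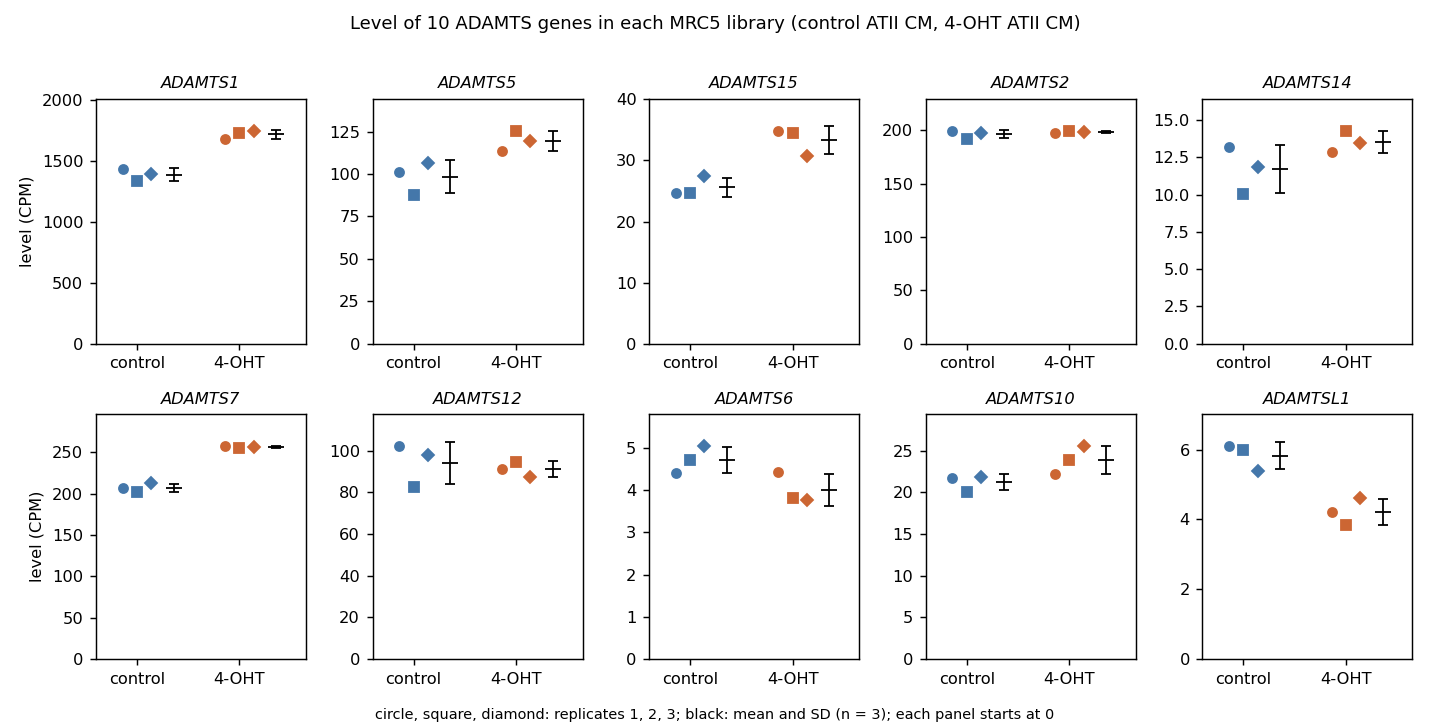
Level in CPM (vertical axes, each from 0) of the 10 genes in the 3 libraries of control ATII CM and the 3 of 4-OHT ATII CM, with the mean and SD (n = 3) in black. *ADAMTS1*, *ADAMTS5*, *ADAMTS7* and *ADAMTS15* are higher in every 4-OHT library than in any control library, *ADAMTSL1* is lower in every one, and *ADAMTS2* lies between 192 and 199.5 CPM throughout.

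The proteoglycan-cleaving enzymes were *ADAMTS1*, *ADAMTS5* and *ADAMTS15*, and all 3 were upregulated. *ADAMTS1*, which cleaves versican and aggrecan and also binds heparin and VEGF, is ENSG00000154734 at 21:26835747-26845409 on the minus strand of GRCh38. Its level in the control libraries was 1432, 1331 and 1392 CPM in replicates 1 to 3, and in the 4-OHT libraries it was 1676, 1729 and 1744 CPM. The lowest 4-OHT library stood well above the highest control library, and counts behind these values were 23768 to 45830 per library. The mean rose from 1385 ± 51.1 CPM (SD, n = 3) to 1716 ± 35.8 CPM (SD, n = 3), a log2 fold change of 0.31 (standard error 0.0303, edgeR adjusted p = 2.24e-05). It was called in all 13 alternative analyses, with log2 fold changes of 0.28 to 0.33.

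*ADAMTS5* encodes the main aggrecanase of cartilage, which also turns over versican, and is ENSG00000154736 at 21:26917912-26966513 on the minus strand. It was at 101, 87.7 and 107 CPM in the control libraries and at 114, 125 and 119 CPM in the 4-OHT libraries. The groups did not overlap, but control ATII CM replicate 2 was low for this gene. From 98.4 ± 9.69 CPM (SD, n = 3) the level rose to 119 ± 5.79 CPM (SD, n = 3), a log2 fold change of 0.28 (standard error 0.0578, edgeR adjusted p = 0.00883). The call was lost in 1 of 13 alternatives, without 4-OHT ATII CM replicate 2 (log2 fold change 0.24, edgeR adjusted p = 0.0691). Without control ATII CM replicate 2 the log2 fold change was 0.20, the lowest of any alternative.

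*ADAMTS15*, a versican- and aggrecan-cleaving enzyme close to *ADAMTS1* in sequence, is ENSG00000166106 at 11:130448974-130476641 on the plus strand. Its level was 24.7, 24.7 and 27.4 CPM in the control libraries and 34.9, 34.5 and 30.7 CPM in the 4-OHT libraries. Every 4-OHT library lay above every control library. The mean went from 25.6 ± 1.56 CPM (SD, n = 3) to 33.3 ± 2.30 CPM (SD, n = 3). This log2 fold change of 0.37 was the highest of the 10 genes (standard error 0.0638, edgeR adjusted p = 0.00211), and it was called in all 13 alternatives.

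*ADAMTS7* and *ADAMTS12* are a pair of closely related proteases that bind and degrade cartilage oligomeric matrix protein (COMP), and only the former was called, as higher. *ADAMTS7* is ENSG00000136378 at 15:78759203-78811431 on the minus strand. Its control ATII CM libraries had 206, 202 and 212 CPM, and its 4-OHT libraries had 257, 255 and 257 CPM. Replicates were very close to each other and the groups far apart. The rise was from 207 ± 5.21 CPM (SD, n = 3) to 256 ± 1.30 CPM (SD, n = 3), a log2 fold change of 0.31 (standard error 0.0332, edgeR adjusted p = 4.596e-05), and the gene was called in all 13 alternatives. Near-identical pseudogenes lie on the same chromosome, which makes its counts less certain than those of the other members. *ADAMTS7P4* matched 64.6% of the *ADAMTS7* transcript at 95.3% identity and *ADAMTS7P3* matched 55.1% at 95.2%. These pseudogenes had 10 and 21 counts over all libraries, against 31553 for *ADAMTS7*.

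*ADAMTS12* (ENSG00000151388, 5:33523535-33892192, minus strand) was at 102, 82.7 and 97.8 CPM in the control libraries and at 91.4, 94.7 and 87.2 CPM in the 4-OHT libraries. The groups overlapped, and the control libraries spanned a wider range than the whole 4-OHT group. The log2 fold change was -0.052 with a 95% interval of -0.18 to 0.077 (edgeR adjusted p = 0.740). Leaving out control ATII CM replicate 2 or 1 changed the call or the sign, and leaving out replicate 3 changed neither. Without control ATII CM replicate 2 the gene was called as lower, at -0.13 (edgeR adjusted p = 0.0445), and without control ATII CM replicate 1 the sign turned, to 0.0066 (edgeR adjusted p = 0.9753). The ratio of *ADAMTS7* to *ADAMTS12*, each as a level per kilobase of exon (RPKM), was 2.56, 3.09 and 2.75 in the control libraries and 3.56, 3.40 and 3.73 in the 4-OHT libraries. The ranges did not overlap, and an exact two-sided permutation test gave p = 0.1, the smallest that 3 libraries against 3 allow (adjusted over 4 such ratios, chosen after the values were seen, 0.133). Of these ratios, that of *ADAMTS1* to *ADAMTS5* overlapped between the groups, at 18.2, 19.5 and 16.7 in the control and 18.9, 17.7 and 18.8 in the 4-OHT libraries (exact two-sided permutation test, p = 0.7).

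The starts of these related genes differ in base composition. The 250 bases before the RefSeq start (GRCh38.p14, 5′ to 3′ on the gene's strand) are shown for both, at chr15:78811465-78811714 for *ADAMTS7* and chr5:33891991-33892240 for *ADAMTS12*, both on the minus strand. Capitals mark GGGCGG on either strand (the box bound by SP1) and TGANTCA on either strand (the AP-1 element). Adjacent GGGCGG matches can share a base.
ADAMTS7: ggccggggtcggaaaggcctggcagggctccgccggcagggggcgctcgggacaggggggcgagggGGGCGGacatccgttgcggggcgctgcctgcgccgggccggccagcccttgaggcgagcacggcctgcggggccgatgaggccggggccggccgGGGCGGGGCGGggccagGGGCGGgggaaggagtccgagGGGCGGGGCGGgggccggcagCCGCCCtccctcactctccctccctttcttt
ADAMTS12: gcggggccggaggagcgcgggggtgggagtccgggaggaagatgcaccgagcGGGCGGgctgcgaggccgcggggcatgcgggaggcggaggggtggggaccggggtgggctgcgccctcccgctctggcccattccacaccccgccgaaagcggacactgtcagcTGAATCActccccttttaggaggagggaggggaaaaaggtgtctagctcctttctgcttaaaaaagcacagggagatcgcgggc

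The *ADAMTS7* window has 7 GGGCGG matches, a number reached by 1.12% of the 35116 windows of this length in the table, and no TGANTCA. The *ADAMTS12* window has 1 of each, where 42.6% of all windows hold GGGCGG and 6.57% hold TGANTCA. Their GC content was 80.8% and 68.4%, against a median of 58% over all windows. Of the members, 7 matched a window by symbol, and *ADAMTS1*, *ADAMTS5* and *ADAMTS15* did not. In the other 5, *ADAMTS2* and *ADAMTS14* had 4 GGGCGG matches each, *ADAMTS10* had 5 in 1 of its 2 windows and none in the other, and *ADAMTS6* and *ADAMTSL1* had 0, and none of the 5 held TGANTCA. These are matches of letters and say nothing of binding.

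*ADAMTS2* and *ADAMTS14* remove the amino-terminal propeptide of fibrillar procollagens, and neither was called (0 with DESeq2 or limma-voom too; 1 had an unadjusted p below 0.05 with edgeR). *ADAMTS2* (ENSG00000087116, 5:179110851-179345430, minus strand) was at 199, 192 and 198 CPM in the control libraries and at 198, 199.5 and 199 CPM in the 4-OHT libraries. All 6 libraries were within a narrow range, with overlap between the groups. The fitted log2 fold change was 0.017 with a 95% interval of -0.053 to 0.087 (edgeR adjusted p = 0.859), so at this depth the interval holds no change as large as that fitted for the 4 upregulated genes. *ADAMTS14* (ENSG00000138316, 10:70672803-70762441, plus strand) had 13.2, 10.0 and 11.9 CPM in the control libraries and 12.8, 14.3 and 13.5 CPM in the 4-OHT libraries. Control replicate 1 lay inside the 4-OHT range. Its log2 fold change of 0.20 had an interval of 0.0016 to 0.41 and did not pass (edgeR adjusted p = 0.284). *ADAMTS1*, *ADAMTS5* and *ADAMTS15* summed as RPKM were 8.62, 8.47 and 8.58 times the sum of *ADAMTS2* and *ADAMTS14* in the control libraries and 10.2, 10.4 and 10.5 times in the 4-OHT libraries, with no overlap (exact two-sided permutation test, p = 0.1, the smallest possible; adjusted 0.133). *ADAMTS1* gave most of the first sum and *ADAMTS2* most of the second, so this is mainly a ratio of these genes.

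*ADAMTS6* and *ADAMTS10* act at fibrillin microfibrils and at cell contacts, and neither was called (0 with DESeq2 or limma-voom too; 1 had an unadjusted p below 0.05 with edgeR). *ADAMTS10*, whose loss causes a form of Weill-Marchesani syndrome, is ENSG00000142303 at 19:8580242-8610735 on the minus strand. It was at 21.7, 20.1 and 21.9 CPM in the control libraries and at 22.2, 23.9 and 25.5 CPM in the 4-OHT libraries. The groups did not overlap, but the nearest libraries were close, and the log2 fold change of 0.17 (95% interval 0.029 to 0.31) did not pass (edgeR adjusted p = 0.180). *ADAMTS6* (ENSG00000049192, 5:65148736-65481920, minus strand) had 4.40, 4.70 and 5.03 CPM in the control libraries and 4.43, 3.81 and 3.77 CPM in the 4-OHT libraries. Control replicate 1 and 4-OHT replicate 1 were nearly level, so the groups overlapped. With 84 to 114 counts per library, its interval was wide, from -0.52 to 0.039 around a log2 fold change of -0.24 (edgeR adjusted p = 0.380). The RPKM ratio of *ADAMTS10* to *ADAMTS6* was 6.78 ± 0.535 (SD, n = 3) in the control libraries and 9.06 ± 1.36 (SD, n = 3) in the 4-OHT libraries (exact two-sided permutation test, p = 0.1, adjusted 0.133).

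*ADAMTSL1*, or punctin, is the member without a protease domain, and it was the only one of the 10 called as lower. It is ENSG00000178031 at 9:17906563-18910950 on the plus strand. Levels were 6.09, 5.99 and 5.38 CPM in the control libraries and 4.20, 3.85 and 4.604 CPM in the 4-OHT libraries. No 4-OHT library reached the lowest control library. The mean fell from 5.82 ± 0.383 CPM (SD, n = 3) to 4.22 ± 0.377 CPM (SD, n = 3), a log2 fold change of -0.46 (standard error 0.124, edgeR adjusted p = 0.0395). This call rests on 92 to 130 counts per library and sits near the threshold. It was lost in 9 of 13 alternatives, with DESeq2 (adjusted p = 0.0855), with counts thinned to the smallest library (edgeR adjusted p = 0.0924), with a replicate block (edgeR adjusted p = 0.0596) and whenever any 1 of the 6 libraries was left out (edgeR adjusted p = 0.0563 to 0.152), while the log2 fold change stayed between -0.53 and -0.40.

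**Figure D2:**
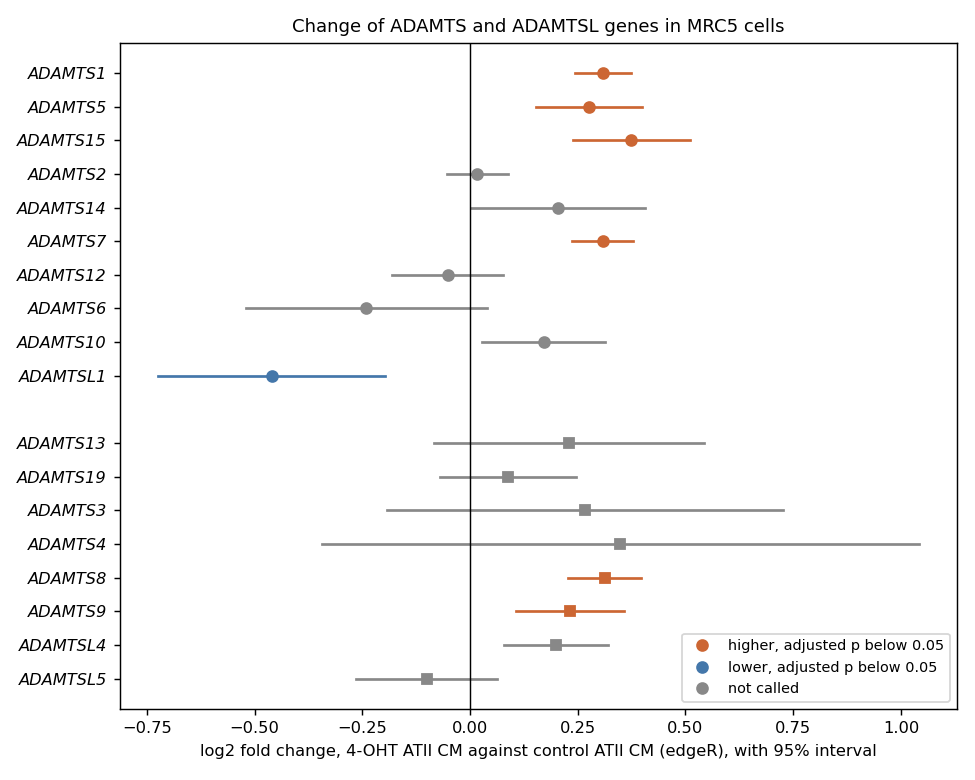
Log2 fold change (horizontal axis, edgeR) with its 95% interval for the 10 genes (circles, top) and the other 8 ADAMTS and ADAMTSL genes with at least 10 counts (squares, bottom); colours mark an adjusted p below 0.05. The 6 upregulated genes sit between 0.23 and 0.37, and *ADAMTSL1* at -0.46 is the only one called as lower.

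Levels of different genes were compared as RPKM. *ADAMTS1* was by far the most abundant member, at 196 ± 7.24 RPKM (SD, n = 3) in the control libraries and 243 ± 5.07 RPKM (SD, n = 3) in the 4-OHT libraries, and by mean RPKM ranked 140 of 19072 genes tested. In control ATII CM it was 7.33 times as high as *ADAMTS7*, the next of the 10 genes in order, and 460 times as high as *ADAMTSL1*, the last. It made up 70.7% of the summed RPKM of the 10 genes in the control libraries and 72.6% in the 4-OHT libraries. That sum was 265 to 286 RPKM over the control libraries and 328 to 338 RPKM over the 4-OHT libraries.

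Below it in the control libraries came *ADAMTS7* at 26.8 RPKM, *ADAMTS2* at 22.5 RPKM, *ADAMTS5* at 10.9 RPKM and *ADAMTS12* at 9.63 RPKM. *ADAMTS15* had 4.52 RPKM, *ADAMTS10* 3.72 RPKM, *ADAMTS14* 2.22 RPKM, *ADAMTS6* 0.550 RPKM and *ADAMTSL1* 0.426 RPKM. The order was the same in the 4-OHT libraries. Of the 9 neighbours in this order, *ADAMTS5* and *ADAMTS12* alone overlapped between libraries in the control libraries, and none overlapped in the 4-OHT libraries, where *ADAMTS5* had 12.6 to 13.8 RPKM and *ADAMTS12* had 8.91 to 9.68 RPKM. *ADAMTS2* had a share of the summed RPKM of 7.99% to 8.28% over the control libraries and 6.73% to 6.89% over the 4-OHT libraries. Its level did not pass the test while that of *ADAMTS1* rose.

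**Figure D3:**
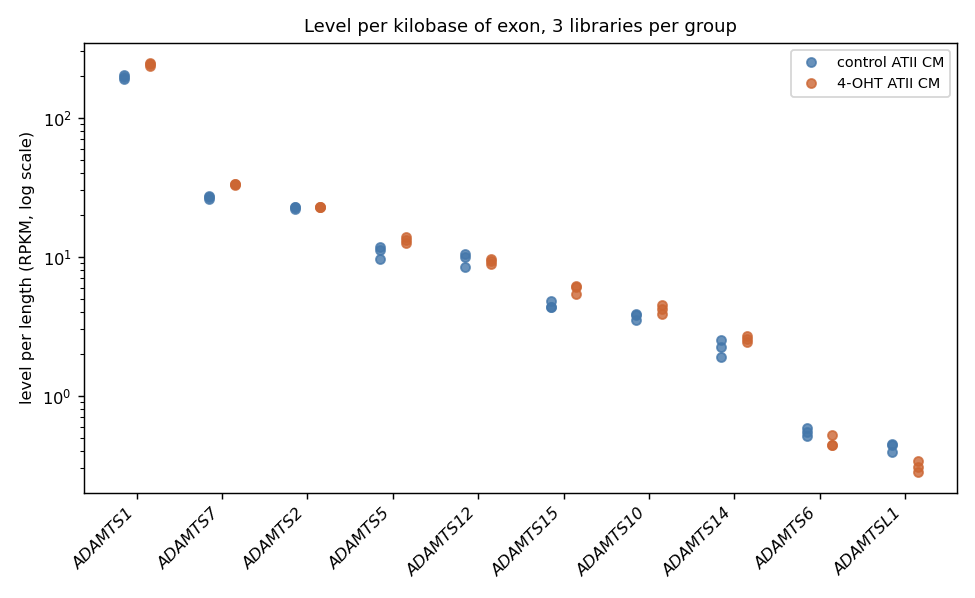
Level per kilobase of exon in RPKM (vertical axis, log scale) of the 10 genes, ordered by their mean in the control libraries, with 1 point per library. The genes span from 0.282 RPKM for *ADAMTSL1* to 247 RPKM for *ADAMTS1*, and the order is the same in both groups.

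The 10 genes are part of a family of 24 genes with an ADAMTS or ADAMTSL number in their symbol. Of the other 14 genes, 6 had under 10 counts in all libraries together (*ADAMTS16*, *ADAMTS17*, *ADAMTS18*, *ADAMTS20*, *ADAMTSL2* and *ADAMTSL3*) and were not measured. Of the 8 measured, 2 were upregulated and none was downregulated with edgeR, DESeq2 or limma-voom. Among all genes tested edgeR called 2.95% as higher and 2.76% as lower. At an unadjusted p below 0.05 with edgeR, 3 of the 8 were higher and 0 lower. *ADAMTS8*, a relative of *ADAMTS1* and *ADAMTS15* that is known from lung and vessels, was at 140, 138 and 134 CPM in the control libraries and 163, 179 and 170 CPM in the 4-OHT libraries. Its log2 fold change was 0.31 (standard error 0.0400, edgeR adjusted p = 0.000216) and it was called in all 13 alternatives. Per length it had 30.4 RPKM in the control libraries, above the 26.8 RPKM of *ADAMTS7*. *ADAMTS9*, a versican-cleaving enzyme, had 29.0, 25.3 and 27.8 CPM and then 31.3, 33.4 and 32.0 CPM. Its log2 fold change of 0.23 (edgeR adjusted p = 0.0289) was not called in 4 of 13 alternatives, which left out control ATII CM replicate 2 or 3 or 4-OHT ATII CM replicate 2 or 3 (edgeR adjusted p = 0.0591, 0.0819, 0.139 and 0.0920).

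*ADAMTSL4*, which binds fibrillin microfibrils, was near the threshold at a log2 fold change of 0.20 (edgeR adjusted p = 0.0525, from 0.00840 to 0.246 over its alternatives), and 11.4% of its exon length overlaps *ADAMTSL4-AS1* on the opposite strand. *ADAMTS4*, the other classical aggrecanase, had 12 to 32 counts per library and a wide 95% interval of -0.34 to 1.04 around a log2 fold change of 0.35 (edgeR adjusted p = 0.659). *ADAMTS3*, the remaining procollagen-type enzyme, had 35 to 70 counts and a 95% interval of -0.19 to 0.73 around a log2 fold change of 0.27. *ADAMTS13*, *ADAMTS19* and *ADAMTSL5* had log2 fold changes of 0.23, 0.088 and -0.10 with adjusted p of 0.482, 0.611 and 0.570 from edgeR. None of the 10 followed genes has exons that overlap those of another gene in the table.

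Of the proteoglycan-cleaving genes, 4 lie in neighbouring pairs. *ADAMTS1* and *ADAMTS5* follow each other on chromosome 21 with 72502 bases between them, and *ADAMTS8* (11:130404925-130428993, minus strand) and *ADAMTS15* stand head to head on chromosome 11 with 19980 bases between them. All 4 were upregulated, while *ADAMTS9* on chromosome 3, also upregulated, and *ADAMTS4* on chromosome 1, not called, lie elsewhere. The pairs were looked at after the values were seen, so their shared direction is only a description. Within 500000 bases of the chromosome 21 pair, 2 of 12 other genes had enough counts to be tested. Their means over the control libraries were at most 0.236 CPM, and neither was called. Around the chromosome 11 pair, 6 of 22 other genes were tested and 1 was called, *APLP2*, with a log2 fold change of 0.11 (edgeR adjusted p = 0.0237). *SNX19* and *ZBTB44*, the others above 10 CPM there, had log2 fold changes of 0.047 and 0.089 (edgeR adjusted p = 0.591 and 0.430).

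Over the 6 libraries the log2 CPM of *ADAMTS1* was most like that of *KCTD12*, *ACBD6* (ENSG00000230124) and *CASP6*, with Pearson r of 0.998, 0.997 and 0.997 among 9201 genes with a mean of at least 10 CPM. The points share library, depth and group, so these values are only a description. The log2 fold changes of these genes were 0.31, 0.21 and 0.14.

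**Figure D4:**
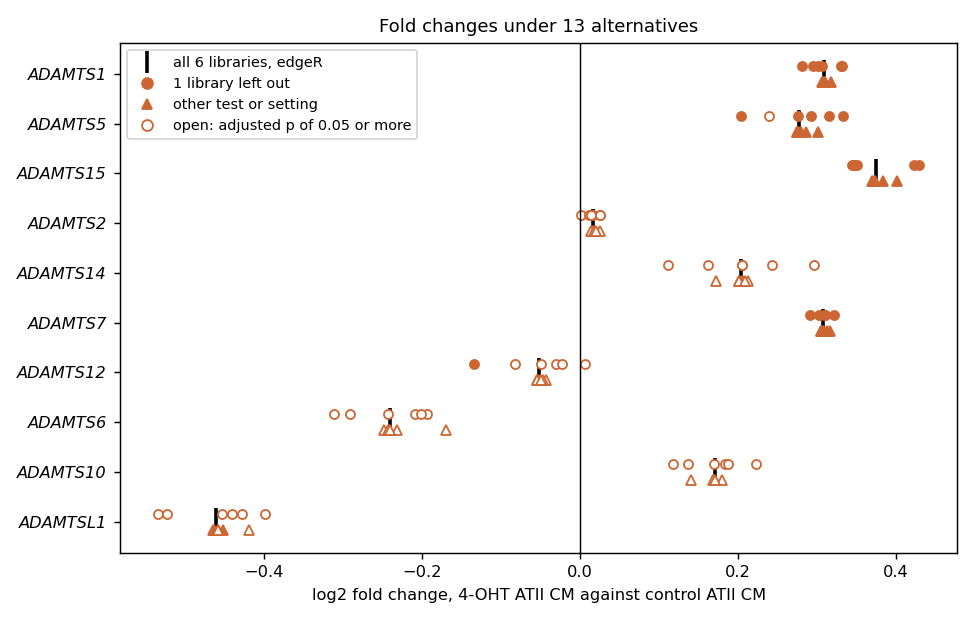
Log2 fold change of the 10 genes (horizontal axis) with all 6 libraries (black bars), with 1 library left out (circles) and with another test, normalization, filter, block or depth (triangles); open symbols have an adjusted p of 0.05 or more. *ADAMTS1*, *ADAMTS7* and *ADAMTS15* are filled throughout, and *ADAMTSL1* is open in 9 of 13 alternatives.

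Control ATII CM replicate 2 had the lowest level of the control libraries for 7 of the 8 members with a mean of at least 10 CPM, all but *ADAMTS15*, compared with 37.8% of all genes at that level. Without it, the log2 fold changes of *ADAMTS1*, *ADAMTS7* and *ADAMTS15* were 0.28, 0.29 and 0.35, and those of *ADAMTS5* and *ADAMTS14* were 0.20 and 0.11.

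ADAMTS enzymes are made as precursors, activated by furin-like convertases and exported after O-fucosylation of their thrombospondin repeats. None of the 6 genes of these steps was called (*FURIN*, *PCSK5*, *PCSK6*, *PCSK7*, *POFUT2* and *B3GLCT*; 0 had an unadjusted p below 0.05 with edgeR, and 0 were called with DESeq2 or limma-voom). Their median log2 fold change was 0.043. *FURIN* was at 133 ± 6.93 CPM in the control libraries and 138 ± 3.44 CPM in the 4-OHT libraries (SD, n = 3 each), and its log2 fold change was 0.048 with a 95% interval of -0.040 to 0.14.

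Of 8 genes for inhibitors, cofactors and clearance, 2 were upregulated and none was downregulated with edgeR (2 were lower at an unadjusted p below 0.05, and DESeq2 and limma-voom called 1 as lower, which with DESeq2 was *TIMP2*), with a median log2 fold change of 0.018. *TIMP3*, the tissue inhibitor that blocks several ADAMTS proteases, was at 852, 822 and 869 CPM in the control libraries and 857, 866 and 849.6 CPM in the 4-OHT libraries. These groups overlapped, and its log2 fold change was 0.016 with an interval of -0.046 to 0.079 (edgeR adjusted p = 0.847). *FBLN1*, whose protein fibulin-1 is a cofactor of ADAMTS1, was at 472, 481 and 478 CPM and then at 558, 564.5 and 551 CPM, a log2 fold change of 0.23 (standard error 0.0289, edgeR adjusted p = 0.000216). *A2M*, a broad protease trap, had a log2 fold change of 0.36 (edgeR adjusted p = 0.000331). *LRP1*, the receptor that takes up ADAMTS5 among other proteases, was at 825, 546 and 789.6 CPM in the control libraries, where replicate 2 was far below the others, and at 571, 605 and 594 CPM in the 4-OHT libraries. Its log2 fold change of -0.29 was not called (edgeR adjusted p = 0.118).

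Among 6 genes for proteoglycan, link protein and COMP or thrombospondin substrates, 5 were measured and 1 was upregulated, *THBS1*, which ADAMTS1 can cleave (log2 fold change 0.14, edgeR adjusted p = 0.0189). At an unadjusted p below 0.05 with edgeR, 3 were higher and 0 lower. The others of these were *BGN*, encoding biglycan (log2 fold change 0.094, edgeR adjusted p = 0.136), and *HAPLN1*, encoding a link protein, with 7 to 31 counts per library (log2 fold change 1.00, edgeR adjusted p = 0.200). *VCAN*, encoding versican, was at 261, 193 and 258 CPM in the control libraries and 244, 255 and 248.8 CPM in the 4-OHT libraries. The control value of replicate 2 was again the lowest, and the log2 fold change was 0.070 with an interval of -0.095 to 0.23 (edgeR adjusted p = 0.723). Without that library its sign turned, to -0.056 (edgeR adjusted p = 0.347). *COMP* had 3 to 7 counts per library and *ACAN* had 2 counts in all, too few to compare.

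For procollagen substrates and their processing, 6 of 8 genes were measured and 1 was upregulated, *COL3A1*, at 4848 ± 143 CPM in the control libraries and 5493 ± 113 CPM in the 4-OHT libraries (SD, n = 3 each; log2 fold change 0.18, edgeR adjusted p = 0.000463). Of the 6, 3 were higher and 3 lower, and at an unadjusted p below 0.05 with edgeR 2 were higher and 1 lower. None was called as lower with edgeR or DESeq2, and 1 was with limma-voom. *COL1A1*, the most abundant of them, had 17731 CPM in the control and 16631 CPM in the 4-OHT libraries on average, a log2 fold change of -0.092 (edgeR adjusted p = 0.0861), which was -0.14 without control ATII CM replicate 2 (edgeR adjusted p = 1.80e-05). *BMP1*, the protease that removes the opposite, carboxy-terminal propeptide, had a log2 fold change of 0.042 and *PCOLCE*, its enhancer, of 0.080 (edgeR adjusted p = 0.596 and 0.169). Of 5 microfibril and fibronectin partners, 2 were downregulated with edgeR. *LTBP1*, which anchors latent TGF-β, fell from 709.8 ± 31.3 CPM to 579 ± 4.98 CPM (SD, n = 3 each; log2 fold change -0.29, edgeR adjusted p = 7.66e-05), and *FN1*, encoding fibronectin, had a log2 fold change of -0.32 (edgeR adjusted p = 0.0107). DESeq2 kept the call of *LTBP1* (adjusted p = 4.96e-14) but not that of *FN1* (adjusted p = 0.0891). *FBN1*, encoding fibrillin-1, was not called (log2 fold change -0.20, edgeR adjusted p = 0.257). Over all 30 measured genes of these lists, 6 were called, 4 as higher and 2 as lower. Among all genes tested 1090 of 19072 were called, 2.95% as higher and 2.76% as lower. Most of these 30 genes have a mean of at least 10 CPM, and at that level 10.2% of all genes were called. The same shares stand beside the counts of each list above. Without control ATII CM replicate 2, 12 genes of these lists were called, and calls among all genes rose as well, to 1530 of 18682. The added calls were all lower: *LRP1*, *FBN1*, *FBN2*, *COL1A1*, *TIMP2* and *COL1A2*, at log2 fold changes of -0.45, -0.35, -0.32, -0.14, -0.10 and -0.065. The balance of higher and lower calls in these lists thus depended on that library.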

How the data were processed

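RNA-Seq libraries of MRC5 cells in control ATII CM (n = 3) and 4-OHT ATII CM (n = 3) were grouped by their titles. Per the submitters' notes, reads were trimmed (Trim Galore), aligned (HISAT2 2.1.0, GRCh38) and assigned to genes (featureCounts 1.6.5) by the authors, and the deposited values are raw counts per gene beside an exon length. The annotation release, strand setting and treatment of multi-mapping reads are not given in the sources used here, which matters for *ADAMTS7* and its pseudogenes. Counts of 45 identifiers listed on 2 lines were added. Symbols came from GENCODE release 44.

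Genes with at least 10 counts over 6 libraries were tested with edgeR 4.0.16 (R 4.3.3; TMM, quasi-likelihood test, group as the only term, Benjamini-Hochberg threshold 0.05). Standard errors were derived from fold change and F statistic. RPKM used TMM-scaled libraries and the deposited exon lengths. Alternatives were DESeq2 1.42.0, limma-voom 3.58.1, RLE size factors, other filters, a replicate block, thinning and leaving out each library. Transcripts were compared with minimap2 2.31. In simulated data, edgeR recovered 174 of 200 genes changed by 0.4 on the log2 scale among 18661, with 8 false calls. The changed genes were drawn from the more abundant ones, and no outlying library was simulated. That change is larger than those fitted for the upregulated members, so the recovery of the members was not measured. The genes and lists were chosen with earlier results of these data known. Named were the 10 genes, the rest of their family, genes of 5 fixed pathway lists and markers, and the 3 genes most like the most abundant member; neighbours were added after values were seen. The element that 4-OHT switches on in the ATII cells is not reported here.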

Additional observations from a re-analysis of the deposited data

How the results depend on the processing

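Of 130 alternative fold changes of the 10 genes, 118 kept direction and side of the threshold. All genes tested gave 1090 DEGs, and leaving out 1 library gave 533 to 1530, the highest without control ATII CM replicate 2 and the lowest without 4-OHT ATII CM replicate 2 (663 without control ATII CM replicate 3, 615 without 4-OHT ATII CM replicate 3). Called members numbered 5, and 3 to 5 with 1 library left out, where higher ones were 3 or 4 and lower ones 0 or 1. The 1 lower call, without control ATII CM replicate 2, was *ADAMTS12*, and *ADAMTSL1* was lost in all 6. No lower member was called with DESeq2, the replicate block or thinned counts (0 in each). Of other family genes 2 were called, and 1 or 2 with 1 library left out; 3 with no filter, with filterByExpr and with thinning. Pathway genes called were 6, 10 with no filter (where all genes gave 1601 of 27749) and 4 to 12 with 1 library left out. With 1 library left out, the log2 fold change of *ADAMTS12* ran from -0.13 to 0.0066, reversed without control ATII CM replicate 1, and that of *ADAMTS4* from -0.024 to 0.51, reversed without 4-OHT ATII CM replicate 2. The cause was not tested.

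Replicate numbers did not pair the libraries: deviations of same-numbered libraries from their group means correlated at -0.104 to -0.0145 over 3 pairs, and 0 of 6 libraries correlated best with its own number. With the replicate block, 985 genes and 4 members were called. Depth limits *ADAMTS6* and *ADAMTSL1*, with 84 to 130 counts per library, and rarer genes.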
